A study of Mus musculus with 20 samples.

Results

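The genes described here were 8 that handle zinc and related metals: the metallothioneins Mt1 and Mt2, the transcription factor Mtf1, the exporters Slc30a1 and Slc30a10, and the importers Slc39a4, Slc39a5 and Slc39a14. They were picked by name from the 26619 gene identifiers of the distal colon table, where each of the 8 had a single entry. All 8 passed the filter on low counts, as did 17893 genes in all. RNA was sequenced from the distal colon of 20 C57BL/6 mice, with 5 mice on each of 4 diets. From weaning, all animals ate the Total Western Diet (TWD), a rodent diet built to resemble what people in the United States eat, for 6 weeks. For a further 3 weeks the 0% RPS group stayed on the TWD alone, while the other groups received the TWD with 2, 5 or 10% resistant potato starch (RPS) by weight. RPS, which the labels call raw potato starch, escapes digestion and is fermented by bacteria in the large bowel. No group lacked the Western diet, so every difference is between amounts of starch on that diet.

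Metallothioneins are small cysteine-rich proteins that bind zinc and copper, and their genes are among the most zinc-responsive known. When free zinc rises in a cell, the zinc-sensing factor MTF1 (the product of Mtf1) binds metal response elements near its target genes, which include Mt1, Mt2 and Slc30a1. Glucocorticoids, oxidants and inflammatory cytokines can also raise metallothionein mRNA. Slc39 genes encode ZIP proteins, which bring zinc or other metals into the cytosol, and Slc30 genes encode ZnT proteins, which move them out of it. ZIP4, the product of Slc39a4, is the main zinc importer on the luminal face of the gut, and its mRNA is known to rise when zinc is scarce.

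The core of the metal response element was searched on both strands as TGCACNC and TGCGCNC in the 400 genomic bases before the start codon of each gene (GRCm39, GENCODE). The sequences below are shown because the metallothionein genes held more of these cores in this window than the other members. Capitals mark the core, which reads as its reverse complement where it lies on the opposite strand. Each line is read 5′ to 3′ on the plus strand, the coding strand of both genes.
Mt1, chr8:94905686-94905708: tcccgctgTGCACACtggcgctc
Mt1, chr8:94905711-94905733: gggagctcTGCACTCcgcccgaa
Mt1, chr8:94905729-94905751: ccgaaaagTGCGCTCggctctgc
Mt1, chr8:94905793-94905815: cgcctgctGGGTGCAaacccttt
Mt1, chr8:94905807-94905829: aaacccttTGCGCCCggactcgt
Mt2, chr8:94899110-94899132: agacccttTGCGCTCagctcctt
Mt2, chr8:94899188-94899210: gggagggcGTGTGCAggctctgt
Mt2, chr8:94899242-94899264: ttcgggtcGTGCGCAggcccagg
Mt2, chr8:94899296-94899318: aaaagggcGTGTGCAggcggcgg
Mt2, chr8:94899315-94899337: gcgggggcGCGTGCAtggtgcct
Mt2, chr8:94899349-94899371: ggagctttTGCGCTCgacccaat

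Mt1 held 5 cores and Mt2 held 6, with no core overlapping another. Among 17767 protein-coding genes with a window of the same length, 34.5% held at least 1 core, 0.343% at least 5 and 0.101% at least 6. Slc30a1 and Slc30a10 held 2 each, and 11.4% of all genes held at least that many. Mtf1, Slc39a4, Slc39a5 and Slc39a14 held none of these letters in this window. The canonical transcripts of these genes start upstream of the window, so the bases just before those starts were not searched. The shares over all genes also rest on windows placed by the start codon, whether or not they held a transcript start. A match is a run of letters and not a measured binding site. The starts of the canonical GENCODE transcripts of Mt1 and Mt2 lie inside this window, and most of the cores lie downstream of those annotated starts. Where transcription starts in these samples was not tested. The gene annotated as Mt2 begins further upstream.

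**Figure D1:**
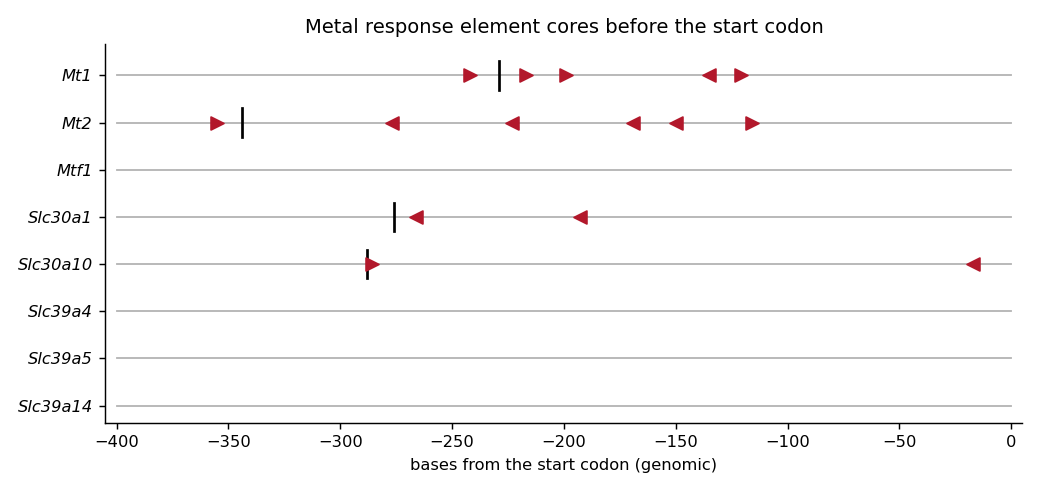
Positions of metal response element cores (red triangles, pointing right for the strand of the gene and left for the opposite strand) in the 400 genomic bases before the start codon of each gene. Black bars mark the start of the canonical transcript where it falls in the window. Mt1 carries 5 cores and Mt2 carries 6, and Slc30a1 and Slc30a10 carry 2 each. The other 4 genes, whose canonical transcripts start upstream of the window, carry none in it.

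Mt1 (ENSMUSG00000031765, chr8:94905710-94906955) and Mt2 (ENSMUSG00000031762, chr8:94898819-94900207) are neighbours on the plus strand. Mtf1 lies at chr4:124695897-124743593, Slc30a1 at chr1:191638808-191645361 and Slc30a10 at chr1:185186973-185200959, all on the plus strand. The importers lie on minus strands, Slc39a4 at chr15:76496580-76504172, Slc39a5 at chr10:128231799-128237121 and Slc39a14 at chr14:70540678-70588914. Windows of read length from the Mt2 transcripts matched transcripts of another gene in 0.429% of cases, those of Slc39a14 in 0.389%, and those of the other 6 in none, so few reads could have been shared with copies.

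Levels are given as CPM, the count per megacount of TMM-scaled library size, and are compared between genes only per kilobase of transcript. On 0% RPS, Mt1 stood highest at 184 ± 109 CPM per kb (SD, n = 5). Slc39a4 followed at 64.1 ± 17.4, then Mt2 at 57.8 ± 39.1 and Slc39a5 at 41.3 ± 5.25. A wide gap separated these from Slc30a1 at 6.64 ± 1.94, Slc39a14 at 6.39 ± 0.759, Mtf1 at 3.85 ± 0.584 and Slc30a10 at 2.42 ± 2.37 CPM per kb. The order was not fixed between neighbours. Slc39a4 exceeded Mt2 in 3 of the 5 mice, Mt2 exceeded Slc39a5 in 2 of 5 and Slc30a1 exceeded Slc39a14 in 2 of 5, so these neighbours did not differ beyond their spread. Mt1 exceeded Slc39a4, and Mtf1 exceeded Slc30a10, in 4 of 5. Slc39a5 exceeded Slc30a1, and Slc39a14 exceeded Mtf1, in all 20 mice. On 10% RPS, Slc39a4 at 99.5 ± 18.5 CPM per kb lay above Mt1 at 64.9 ± 18.9, and Slc39a5 at 36.1 ± 3.47 lay above Mt2 at 19.6 ± 4.53.

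Over all 20 mice, Slc30a10 spanned 24.6-fold from the lowest to the highest mouse, Mt2 9.44-fold and Mt1 8.80-fold. By contrast Slc39a5 spanned 1.52-fold, Slc39a14 1.53-fold and Mtf1 1.86-fold. Between them lay Slc30a1 at 4.35-fold and Slc39a4 at 2.78-fold. The lowest raw count of Mt1 in any mouse was 749 and that of Mt2 was 267, while Slc30a10 went down to 41 counts.

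Total counts ran from 18.4 to 35.0 megacounts per mouse, and the 0% RPS libraries (31.3 to 35.0 megacounts) were all deeper than the 10% RPS libraries (18.4 to 26.6 megacounts). Epithelial markers were abundant throughout, with a summed level of 8956 to 14026 CPM over 7 genes. Pancreatic acinar markers summed to 5525 CPM in mouse RS10_721 (5% RPS) and to at most 815 CPM in any other mouse. In RS10_721 0 of the 7 markers were at 0. In RS10_704 (0% RPS) 5 of 7 were at 0 though the sum was 477 CPM, so few of the markers made up that sum. The description label set the diet groups, and in 3 mice it disagrees with the treatment label about the amount of RPS. Nothing in the labels says how mice were caged or which libraries were made together, so p-values measure the spread between mice only.

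Mean Mt1 and mean Mt2 were lower at each higher level of RPS, and by the slope test of edgeR this passed for Mt1 but not for Mt2. On 0% RPS, Mt1 stood at 63.0, 90.2, 92.8, 199 and 256 CPM in the 5 mice. At 2% RPS it measured 55.8, 71.7, 83.5, 89.6 and 210.4 CPM, and at 5% RPS 51.0, 53.3, 66.6, 76.1 and 82.1 CPM. The 10% RPS mice had 29.1, 46.3, 48.0, 55.5 and 68.5 CPM. Mice RS10_707 and RS10_708 carried the high values on 0% RPS and mouse RS10_715 the high value on 2% RPS, while no mouse on 5 or 10% RPS exceeded 82.1 CPM. Of the 10% RPS mice, 4 of 5 lay below the lowest 0% RPS mouse and 1 overlapped.

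Mean Mt1 was 140.3 ± 83.1 CPM on 0% RPS (SD, n = 5), 102 ± 61.9 on 2%, 65.8 ± 13.7 on 5% and 49.5 ± 14.4 on 10% RPS. In the fit across all genes, Mt1 was 2.84-fold lower at 10% than at 0% RPS (log2 fold change -1.51 ± 0.40 SE, 95% interval -2.36 to -0.65). With an edgeR adjusted p of 0.103 that difference did not pass, whereas DESeq2 gave an adjusted p of 0.0150. At 5% RPS the log2 fold change was -1.09 ± 0.40 (edgeR adjusted p = 0.417) and at 2% RPS -0.46 ± 0.39 (edgeR adjusted p = 1.0). As a line over RPS percent, Mt1 fell by 1.49 ± 0.36 (SE) on the log2 scale per 10 percentage points, and this slope passed with an edgeR adjusted p of 0.0404. It did not pass when mice were grouped by the treatment label (adjusted p = 0.209) or without the 3 mice with differing labels (0.0988). Nor did it pass with no filter on low counts (0.0556) or with the clock gene Dbp as a covariate (0.0645). Leaving out 1 mouse at a time kept the slope between -1.65 and -1.25. The adjusted p rose to between 0.0507 and 0.102 without any 1 of 11 mice (RS10_701, RS10_707, RS10_708, RS10_712, RS10_716, RS10_717, RS10_718, RS10_725, RS10_729, RS10_731 or RS10_784). In bulk tissue, fewer cells of a type and less RNA per cell cannot be told apart.

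By its means, Mt2 followed the same order as its neighbour. Its mean was 43.2 ± 29.2 CPM on 0% RPS (SD, n = 5), 32.6 ± 29.4 on 2%, 17.9 ± 6.83 on 5% and 14.6 ± 3.39 on 10% RPS, but by median 2% RPS (18.4 CPM) lay under 5% RPS (21.7 CPM). Its levels were 16.8, 25.2, 26.8, 62.1 and 85.3 CPM on 0% RPS, and 11.9, 17.3, 18.4, 32.0 and 83.5 CPM on 2% RPS. They were 9.03, 12.2, 21.7, 22.6 and 24.1 CPM on 5% RPS, and 10.9, 13.2, 13.8, 15.3 and 20 CPM on 10% RPS. The high mice were RS10_707, RS10_708 and RS10_715 once more, and again 4 of the 5 mice on 10% RPS lay under every 0% RPS mouse. Mt2 at 10% RPS was 2.96-fold under its 0% RPS level, a log2 fold change of -1.57 ± 0.53 (SE, 95% interval -2.70 to -0.44). The edgeR adjusted p was 0.182 for that difference and 0.0816 for the slope of -1.60 ± 0.48 per 10 percentage points, and DESeq2 gave the slope an adjusted p of 0.0236. Without mouse RS10_703, the lowest 0% RPS mouse, the edgeR adjusted p of the slope was 0.0499. The ratio of Mt1 to Mt2 CPM had a median of 3.46 on 0% RPS and 3.43 on 10% RPS, and lay between 2.52 and 5.91 over all mice.

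**Figure D2:**
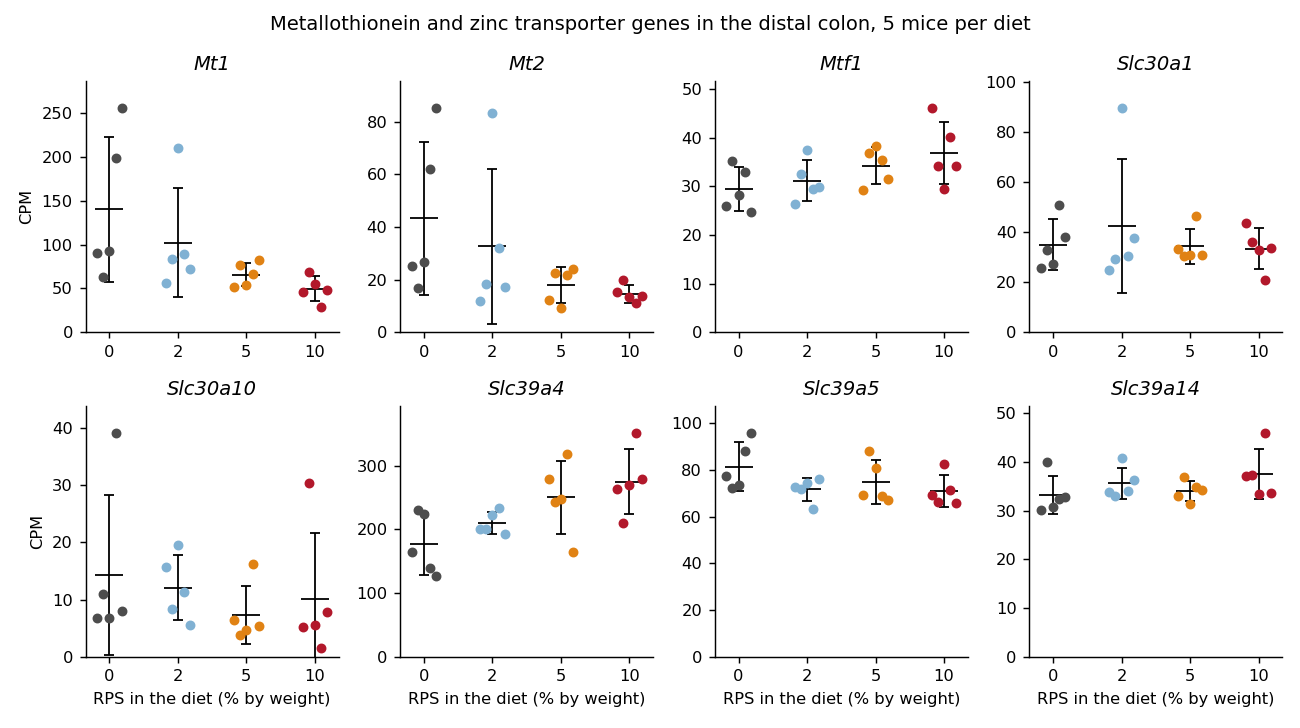
CPM of each of the 8 genes by RPS in the diet, 1 point per mouse with the mean (long dash) and SD (error bar) of 5 mice per diet. Mean Mt1 goes from 140.3 CPM on 0% RPS to 49.5 CPM on 10% RPS, mean Slc39a4 goes from 177 to 275 CPM, and Slc39a5 and Slc39a14 stay within narrow ranges.

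Slc39a4 went the other way. On 0% RPS the mice had 127, 139, 164, 224 and 231 CPM, with the lowest values in RS10_708 and RS10_707, the mice highest for the metallothioneins. At 2% RPS the values lay close together at 193, 200.1, 201, 222 and 233 CPM. At 5% RPS they were 164, 243, 248, 279 and 319 CPM, and at 10% RPS 210.0, 263, 269, 279 and 352 CPM. On 5% and on 10% RPS, 4 of 5 mice exceeded every 0% RPS mouse and 1 overlapped them, whereas on 2% RPS 1 of 5 exceeded them.

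Mean Slc39a4 was 177 ± 48.0 CPM on 0% RPS (SD, n = 5), 209.7 ± 17.1 on 2%, 251 ± 57.2 on 5% and 275 ± 51.0 on 10% RPS. The difference at 10% RPS was 1.55-fold (log2 fold change 0.64 ± 0.18 SE, 95% interval 0.27 to 1.0). The adjusted p was 0.103 by edgeR and 0.0213 by DESeq2. At 5% RPS the log2 fold change was 0.50 ± 0.18 (edgeR adjusted p = 0.384). The slope was 0.61 ± 0.17 per 10 percentage points, with adjusted p of 0.0535 by edgeR, 0.00849 by DESeq2 and 0.0479 by limma-voom. In edgeR, the difference at 10% RPS passed without mouse RS10_703 (adjusted p = 0.0487) or RS10_727 (adjusted p = 0.0431). The slope passed without RS10_703, RS10_704, RS10_721, RS10_724 or RS10_727, at adjusted p between 0.0170 and 0.0425.

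Markers of surface colonocytes, the mature absorptive cells of the colon, also moved with diet. Their summed level over 5 genes was 2711 to 3255 CPM on 0% RPS and 4379 to 4874 CPM on 10% RPS, with no marker at 0 in any mouse. Of the 5, Slc26a3, Car4, Aqp8 and Ceacam20 rose with RPS percent by the edgeR slope, beside 1.15% of all genes. Guca2a was not called by it. Krt20, a keratin of mature colonocytes, also rose, from 566 ± 226 CPM on 0% RPS to 1059.7 ± 199 on 10% RPS (SD, edgeR adjusted p = 0.0249 for the slope). Krt20 was the only 1 of the 7 epithelial markers that edgeR called by the slope, and edgeR called 0 of them at 10% RPS. Their median log2 fold change at 10% RPS was 0.19. Of the 7, DESeq2 called Krt20 and the epithelial factor Cdx2 higher at 10% RPS, beside 0.537% of all genes it gave a p-value. Of the markers of other organs, Ttr, from the hepatocyte list, fell by the slope, from 70.3 ± 8.21 to 55.2 ± 4.97 CPM (SD, edgeR adjusted p = 0.0476). The summed level of the 4 hepatocyte markers had a median of 69.8 CPM on 0% RPS and 59.1 CPM on 10% RPS, medians near the level of Ttr alone. The sum was highest in RS10_703 (0% RPS) at 189 CPM and next highest in RS10_727 (10% RPS) at 100.2 CPM. Both lay above the Ttr level of their diets. Which cells this Ttr RNA came from was not tested. The part of these markers in the Slc39a4 values was not tested. Total counts differed between the same groups, and the part of depth was not tested either.

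Mtf1, which encodes the zinc sensor itself, varied little. Its levels were 24.8, 26.0, 28.2, 33.0 and 35.1 CPM on 0% RPS and 29.5, 34.2, 34.2, 40.1 and 46.1 CPM on 10% RPS. Those groups overlapped, with 2 of 5 mice on 10% RPS above the highest 0% RPS mouse. At 10% RPS the log2 fold change was 0.33 ± 0.12 (SE, edgeR adjusted p = 0.211), and the slope of 0.33 ± 0.11 per 10 percentage points had an edgeR adjusted p of 0.108. Mean Mtf1 was 31.2 ± 4.19 CPM on 2% RPS and 34.2 ± 3.77 CPM on 5% RPS (SD, n = 5).

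Among the other importers, Slc39a5 encodes ZIP5, which sits on the basolateral face of gut epithelium and is also found in the pancreas. It ran from 72.0 to 95.9 CPM on 0% RPS and from 65.8 to 82.6 CPM on 10% RPS, and 4 of 5 mice on 10% RPS lay below the lowest 0% RPS mouse. The log2 fold change was -0.19 ± 0.09 (SE, edgeR adjusted p = 0.323). Mouse RS10_721, with the high pancreatic markers, had 68.6 CPM, within the range of the other 5% RPS mice (67.1 to 88.0 CPM). Slc39a14 encodes ZIP14, which carries manganese, zinc and iron. It ran from 30.1 to 40.0 CPM on 0% RPS and from 33.3 to 46.0 CPM on 10% RPS (log2 fold change 0.17 ± 0.09, edgeR adjusted p = 0.385). The 95% interval of that difference, -0.02 to 0.37, leaves out changes of 1.5-fold, as does the interval for Slc39a5, -0.39 to 0.00.

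The exporters showed no ordered change with diet. Slc30a1 encodes ZnT1, the zinc exporter of the plasma membrane. It stood at 25.8, 27.2, 33.1, 38.1 and 51.1 CPM on 0% RPS and at 20.7, 32.9, 33.7, 36.2 and 43.7 CPM on 10% RPS. The groups overlapped almost wholly, and the log2 fold change was -0.07 ± 0.31 (SE, edgeR adjusted p = 0.942, 95% interval -0.72 to 0.58). On 2% RPS, RS10_715 had 89.8 CPM against 24.8 to 37.8 CPM in the other mice. Without it the log2 fold change of Slc30a1 at 2% RPS went from 0.27 to -0.20, and neither value passed.

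Slc30a10 encodes ZnT10, which despite its family name is known chiefly as a manganese exporter. Each diet held a high mouse or a wide spread. On 0% RPS it measured 6.77, 6.86, 7.93, 10.9 and 39.2 CPM, the last in RS10_707. On 2% RPS it measured 5.54, 8.41, 11.3, 15.7 and 19.6 CPM, and on 5% RPS 3.74, 4.74, 5.31, 6.44 and 16.2 CPM. On 10% RPS it measured 1.59, 5.29, 5.63, 7.81 and 30.3 CPM. The log2 fold change at 10% RPS was -0.52 ± 0.69 (SE, edgeR adjusted p = 0.776), and the interval from -1.98 to 0.94 is too wide to give a direction. It became 0.30 without RS10_707 and -1.49 without RS10_727.

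**Figure D3:**
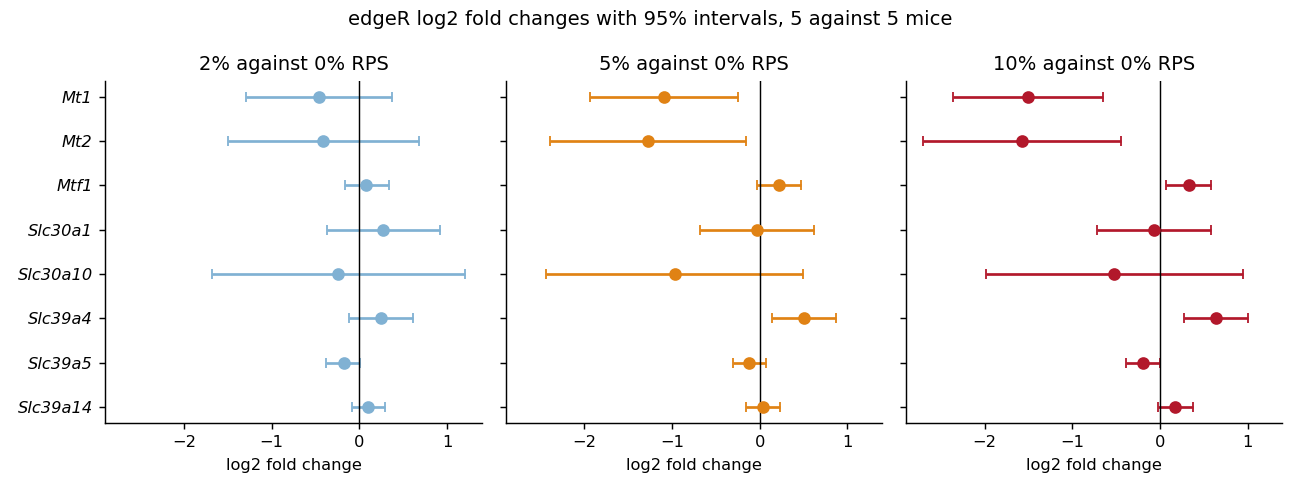
edgeR log2 fold changes of the 8 genes at 2, 5 and 10% against 0% RPS, with 95% intervals (5 against 5 mice, all comparisons sharing the 0% RPS mice). Mt1 and Mt2 lie to the left of 0 at each level, at -1.51 and -1.57 at 10% RPS, Slc39a4 lies to the right at 0.64, and the intervals of Slc30a1 and Slc30a10 cross 0.

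Counted over the 8 genes, edgeR called 0 at 10% RPS (adjusted p of at most 0.05 and at least 1.5-fold), where 0.0391% of all tested genes were called. At an unadjusted p under 0.05 by edgeR there were 5 of 8 (Mt1, Mt2, Mtf1, Slc39a4 and Slc39a5), beside 15.2% of all genes. DESeq2 called 2 at 10% RPS, beside 0.811% of its genes: Mt1 lower (0.274% of its genes were) and Slc39a4 higher (0.537% were). Shares of DESeq2, here and below, are over all genes with a p-value, 25901 at 10% RPS. These include low-count genes that DESeq2 can leave without an adjusted p, which can make its shares too low. limma-voom called 0, beside 0.0391%. None of the 8 was free of overlap between the mice on 0% and 10% RPS, while 2.27% of all genes were; at 5 and 2% RPS the count was also 0, beside 1.04% and 0.240%. At 5% RPS edgeR and limma-voom called 0 members, as they did of all genes, and DESeq2 called 0, beside 0.120% of its genes, with 3 (Mt1, Mt2 and Slc39a4) at an unadjusted edgeR p under 0.05, beside 9.19% of all genes. At 2% RPS these tools called 0, beside 0.00386% of all genes by DESeq2, and none had an unadjusted edgeR p under 0.05, beside 1.41% of all genes.

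By the slope over RPS percent, edgeR called 1 of 8 (Mt1), where 2.10% of all tested genes were called, 0.950% lower and 1.15% higher. Those shares come from 375 genes, a number that fell to 0 under the treatment label and to 56 without the 3 mice with differing labels. Leaving out 1 mouse moved it from 24 without RS10_784 to 1148 without RS10_727. At an unadjusted edgeR p under 0.05 there were 4 of 8, beside 19.1% of all genes. DESeq2 called 3 by the slope, beside 3.81% of its genes: Mt1 and Mt2 lower (1.63% were) and Slc39a4 higher (2.18% were). limma-voom called 2, beside 2.05%: Mt1 lower (0.827% were) and Slc39a4 higher (1.22% were). In the edgeR test of any difference among the 4 diets 0 members were called, beside 0.0727% of all genes, and 3 had an unadjusted p under 0.05, beside 10.6%. DESeq2 called Mt1 in that test, beside 1.35% of its genes, and limma-voom called 0, beside 0.0447%. The median log2 fold change at 10% RPS was -0.13 over the 8 genes and -0.01 over all genes.

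Mouse by mouse, the metallothioneins moved as a pair and Slc39a4 against them. Over the 20 mice, log2 CPM of Mt1 and Mt2 had a Pearson r of 0.95 and a Spearman rho of 0.92 (permutation p = 1e-05 for each, the smallest that 100000 resamples can give; adjusted over 28 pairs 0.000280). With each diet's mean removed r was 0.94, and without the 2 mice farthest from the Mt1 median (RS10_708 and RS10_715) it was 0.90. Mt1 and Slc39a4 gave r = -0.77 and rho = -0.76 (permutation p = 0.000110 and 0.000230, adjusted 0.00154 and 0.00322). With each diet's mean removed that r was -0.58 (permutation p = 0.00760, adjusted 0.0472), and the pooled r was -0.80 without the same 2 mice. Within-diet permutation p-values, here and below, come from shuffling diet-centred values over all 20 mice. Such shuffling ignores the removed means and the unequal spread of the diets, so these p-values can be too small. Mt2 and Slc39a4 gave r = -0.64 and rho = -0.60 (permutation p = 0.00264 and 0.00579, adjusted 0.0246 and 0.0405). Within diets that r was -0.41 (permutation p = 0.0724, adjusted 0.203), so the Mt2 relation did not hold there after adjustment.

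**Figure D4:**
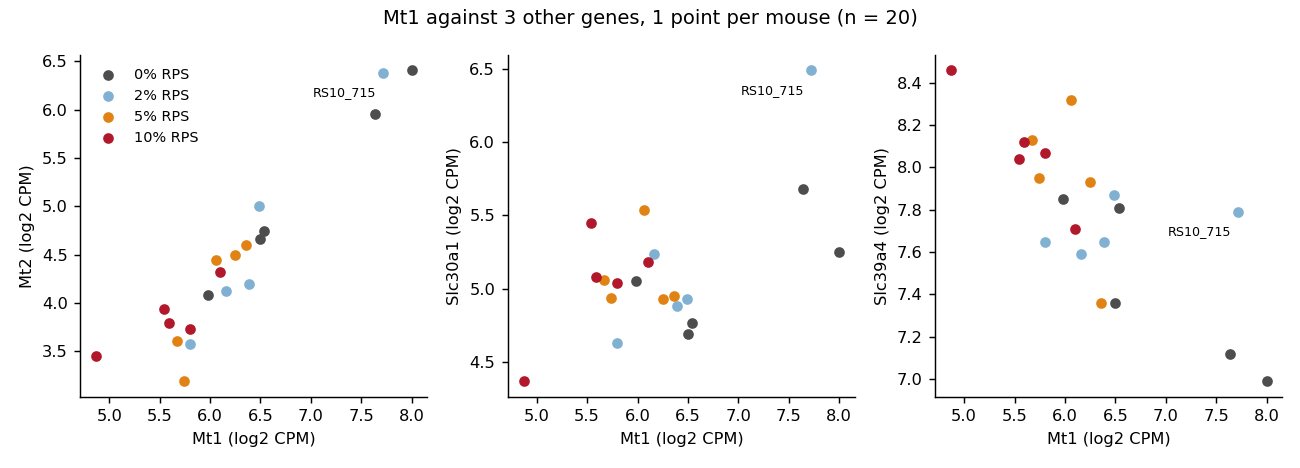
Log2 CPM of Mt1 (x axis) against log2 CPM of Mt2, Slc30a1 and Slc39a4 (y axes), 1 point per mouse coloured by diet (n = 20). Mt2 follows Mt1 along a line (r = 0.95), Slc39a4 declines with Mt1 (r = -0.77), and for Slc30a1 mouse RS10_715 stands apart at the upper right.

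Over the pooled mice, Slc30a1 went with Mt1 by Pearson but not by rank. With Mt1 its Pearson r was 0.58 (permutation p = 0.00883, adjusted 0.0412) but its rho was 0.16 (permutation p = 0.502, adjusted 0.611). Within diets r was 0.72 (permutation p = 0.000350, adjusted 0.00457), and 0.60 within diets without RS10_715. Without RS10_708 and RS10_715 the pooled r was 0.41 (permutation p = 0.0887), so the pooled relation was weaker without those mice. RS10_715 also had the highest summed level of 10 glucocorticoid-responsive genes, 1099.6 CPM against at most 887 CPM in any other mouse, and the part of this in its metallothionein values was not tested. Mtf1 was not detectably related to Mt1 (r = -0.37, rho = -0.43, permutation p = 0.109 and 0.0613, adjusted 0.190 and 0.215; within diets r = 0.01). Its closest member was Slc39a14 (r = 0.60, rho = 0.63, permutation p = 0.00500 and 0.00369, adjusted 0.0280 and 0.0344), with r = 0.56 within diets and 0.63 without the 2 mice farthest from the Mtf1 median. Of the 28 pairs, 9 passed after adjustment by Pearson, 4 by Spearman and 6 within diets. Members of a pair were read from the same libraries.

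**Figure D5:**
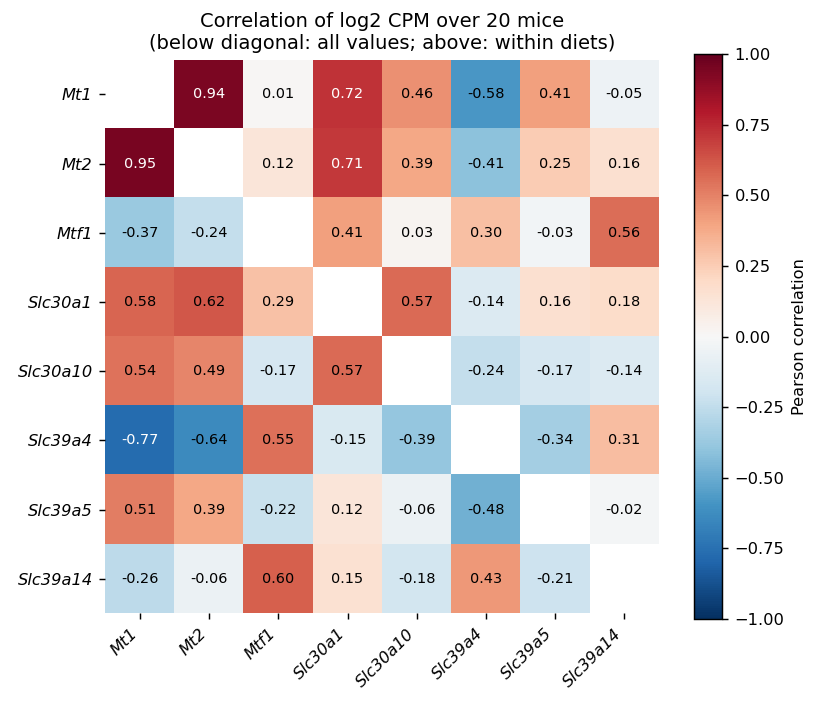
Pearson correlations of log2 CPM between the 8 genes over 20 mice, with pooled values below the diagonal and values after removing each diet's mean above it. Mt1 and Mt2 reach 0.95 pooled and 0.94 within diets, Mt1 and Slc39a4 -0.77 and -0.58, and Mt1 and Mtf1 -0.37 and 0.01.

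Among all 17892 other tested genes, the gene most like Mt1 over the 20 mice was Mt2. After it came Ptpn13 (r = 0.83), Rdm1 (0.83), Aldh6a1 (0.80), Slc7a8 (0.79) and Rac3 (0.78). Slc39a4 stood at rank 17879, close to the end of that order. The genes most like Slc39a4 were Bmp8b (r = 0.92), Slc9a3 (0.92), Ppy (0.91), Mgat4c (0.89) and Ddah1 (0.89), with r between 0.82 and 0.90 within diets. Slc9a3, which encodes the apical sodium-proton exchanger NHE3, ranged from 1.49 to 187 CPM over the mice. These correlations describe genes read from the same libraries and carry no test.

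The shares of all tested genes that apply to the lists below are 0.0391% called and 15.2% at an unadjusted edgeR p under 0.05 at 10% RPS, and 2.10% and 19.1% for the slope, so 0 calls in a list of this size is near the background. Of the Slc30 family 8 genes were tested and edgeR called 0 at 10% RPS and 0 by the slope, as did DESeq2, with 2 of 8 at an unadjusted edgeR p under 0.05 at 10% RPS. Those were Slc30a4 (46.8 ± 7.71 CPM on 0% and 61.9 ± 7.64 on 10% RPS, SD, edgeR adjusted p = 0.244) and Slc30a7 (58.6 ± 8.79 and 68.3 ± 3.10 CPM, edgeR adjusted p = 0.242), both transporters of internal compartments. Of the Slc39 family 13 were tested and edgeR called 0, with 3 at an unadjusted p under 0.05 at 10% RPS and 5 by the slope. The 3 at 10% RPS were Slc39a4, Slc39a5 and Slc39a9. DESeq2 called 1 of the 13, Slc39a4, in both tests. Outside those 3, Slc39a8, which carries zinc and manganese, had a log2 fold change of 0.30 ± 0.16 at 10% RPS. That of Slc39a10 was 0.29 ± 0.14 and that of Slc39a2 was -0.26 ± 0.21 (SE, edgeR adjusted p = 0.369, 0.333 and 0.584 in this order). The median log2 fold change at 10% RPS was 0.04 over the tested Slc30 genes and 0.01 over the tested Slc39 genes. Mt3, the third tested metallothionein, had 1.55 ± 0.238 CPM on 0% RPS and 1.56 ± 0.350 on 10% RPS (SD, n = 5).

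Metallothioneins also bind copper. Of 10 copper-handling genes, edgeR called 0 at 10% RPS and 1 by the slope, and 4 had an unadjusted edgeR p under 0.05 at 10% RPS. The gene that rose by edgeR was Heph, which encodes the copper-dependent ferroxidase hephaestin of the basolateral membrane. It went from 78.7 ± 6.82 to 113 ± 13.5 CPM (SD, n = 5), with an edgeR adjusted p of 0.00503 for the slope and 0.0438 at 10% RPS, where it stayed under 1.5-fold. The copper exporter Atp7b had 6.14 ± 1.88 CPM on 0% RPS and 3.59 ± 0.789 on 10% RPS (log2 fold change -0.78 ± 0.23 SE), with an adjusted p of 0.124 by edgeR and 0.0435 by DESeq2. Slc31a1, which encodes the copper importer CTR1, had 156 ± 17.5 and 191 ± 13.9 CPM (SD), and DESeq2 called its slope (adjusted p = 0.0337). At 10% RPS its adjusted p was 0.120 by edgeR and 0.0478 by DESeq2, but it stayed under 1.5-fold and was not called. Of the 10 copper-handling genes, DESeq2 called 0 higher and 1 lower at 10% RPS, and 2 higher and 1 lower by the slope. Of 6 manganese transport genes edgeR and DESeq2 called 0 at 10% RPS, and 0 had an unadjusted edgeR p under 0.05.

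Lists of genes that respond to the other known inducers of metallothioneins were read against the same shares. Of 10 glucocorticoid-responsive genes edgeR called 0 at 10% RPS and by the slope, 1 had an unadjusted p under 0.05 at 10% RPS, and the median log2 fold change was -0.12. That gene was the clock gene Per1 (78.3 ± 13.9 CPM on 0% and 60.0 ± 9.83 on 10% RPS, SD, edgeR adjusted p = 0.247), and DESeq2 called its slope lower (adjusted p = 0.0448). Of 8 targets of NRF2, the factor that answers oxidants, edgeR and DESeq2 called 0 at 10% RPS, 3 had an unadjusted edgeR p under 0.05 and the median was 0.14. Of 10 genes responsive to IL-6 and STAT3 edgeR called 0, 4 had an unadjusted p under 0.05 at 10% RPS and the median was -0.01. Their summed level had a median of 1699 CPM (1013 to 1951) on 0% RPS and 1322 CPM (962 to 1636) on 10% RPS. The largest difference among them was in Socs3, an inhibitor of cytokine signalling, at 7.39 ± 1.17 CPM on 0% RPS and 21.8 ± 14.0 on 10% RPS (SD, edgeR adjusted p = 0.183). DESeq2 called Socs3 and Bcl3 higher at 5% RPS (adjusted p = 0.0409 and 0.0311) and Socs3 higher by the slope (adjusted p = 0.0345).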

How the data were processed

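The authors trimmed and mapped short single-end reads from stranded polyA libraries to GRCm39 in CLC Genomics Workbench and deposited raw counts of reads per gene for each of the 20 mice. Which annotation was used, and what was done with reads that matched more than 1 gene, is not given in the sources used here. Of 26619 identifiers, 26338 were found in GENCODE vM39, which gave symbols and positions (1-based). 1 listed Slc30 gene was not analysed here.

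Counts were analysed in R 4.3.3 with edgeR 4.0.16: filterByExpr at a minimum count of 10, TMM scaling, and the robust quasi-likelihood F-test in 1 fit over 4 diets, grouped by the description label. P-values were adjusted by Benjamini-Hochberg over all 17893 tested genes. Calls needed an adjusted p no higher than 0.05 and 1.5-fold (slope and any-diet tests without a fold limit). The SE was the log2 fold change over the square root of F, and 95% intervals used the t distribution. Correlations used log2 CPM (prior count 2) and two-sided permutation tests. DESeq2 1.42.0, limma 3.58.1 (voom), RLE scaling, no filter, the treatment label, leaving out the 3 mice with differing labels, the 2 diets compared alone, log2 CPM of the clock gene Dbp as a covariate, and leaving out each mouse were alternatives. Named list genes were taken from those that were called or had one of the 4 largest differences of their list at 10% RPS. Not every such gene is named. The other named genes were the 8 members, marker genes called by edgeR or DESeq2, and the 5 genes most like Mt1 and Slc39a4. The steps were tested on simulated data. The members and lists were chosen with earlier results of these data known. Mouse numbers are unique, so nothing pairs mice across diets.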

Additional observations from a re-analysis of the deposited data

Results flagged for a closer look

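In 9 of 36 sets of 5 mice (8 genes and the total count on 4 diets) the extreme mouse was farther from its nearest neighbour than Dixon's 95% criterion allows, where chance gives about 1.80. That figure holds for normally distributed values, while the criterion was applied to values without logs. A mouse can also be flagged in several related genes, so the excess over 1.80 was not tested. Mouse RS10_715 on 2% RPS was far above the other mice for Mt1 (210.4 CPM, next 89.6), Mt2 (83.5 CPM, next 32.0) and Slc30a1 (89.8 CPM, next 37.8). On 5% RPS, RS10_721 was far above for Slc30a1 (46.5 CPM, next 33.3) and Slc30a10 (16.2 CPM, next 6.44). For Slc30a10 the same held for RS10_707 on 0% RPS (39.2 CPM, next 10.9) and RS10_727 on 10% RPS (30.3 CPM, next 7.81). Slc39a14 was far above in RS10_703 on 0% RPS (40.0 CPM, next 32.8). The total count of RS10_724 on 5% RPS was far below the others (22.3 megacounts, next 28.7).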

How the results depend on the processing

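Of the alternative values of member log2 changes, 847 kept direction and side of the threshold, 14 newly passed, 15 no longer passed and 12 changed sign. DESeq2 called 2 members at 10% RPS, 3 by the slope and 1 for any diet difference, and limma-voom called 2 by the slope. The slope count was 0 with no filter on low counts, with the treatment label, without the 3 mice with differing labels and with Dbp as a covariate, where Mt1 had edgeR adjusted p of 0.0556, 0.209, 0.0988 and 0.0645. Leaving out each mouse gave 0 to 2 members at 10% RPS (2 without RS10_703, 1 without RS10_727) and 0 to 3 by the slope. The calls over all genes moved too, at 10% RPS from 7 to 109 of 18001 without RS10_703 and to 188 of 18096 without RS10_727. Changes of sign were limited to members that did not pass. Slc30a1 at 5% RPS was 0.06 with the treatment label. Leaving out each mouse, Slc30a1 ran from -0.19 to 0.11 at 10%, -0.17 to 0.15 at 5% and -0.20 to 0.45 at 2% RPS. Slc30a10 ran from -1.49 to 0.30 at 10% RPS, -0.49 to 0.58 at 2% RPS and -1.56 to 0.00 for the slope, and Slc39a14 at 5% RPS from -0.01 to 0.11. The causes were not tested. No paired analysis was possible because each mouse number belongs to 1 animal. Of the alternative correlations 65 moved little, 16 moved by more and 3 no longer passed. Leaving RS10_715 out of the within-diet correlations was chosen after seeing the data, and gave -0.71 for Mt1 with Slc39a4.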
